A study of Mus musculus with 47 samples.

Results

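Gene expression in the hippocampus was compared between old male mice 4 days after sepsis and old male controls. The comparison holds 8 of the 47 libraries of the series, taken by their labels as old, male, and either control (replicates 1, 2, 3 and 4) or day 4 (replicates 2, 3, 5 and 8). Each library was made from 1 whole hippocampus, so the spread between libraries includes that between animals. All mice were C57BL/6 and between 18 and 22 months of age. The day 4 mice had undergone cecal ligation and puncture, in which the cecum is tied off and pierced so that gut bacteria reach the abdomen, with buprenorphine after surgery, the antibiotic imipenem and daily restraint in a cone that was last applied shortly before sacrifice. The controls came from the home cage and had neither surgery nor restraint, with isoflurane at sacrifice in both groups, so the effects of sepsis, surgery, anesthesia, drugs and restraint cannot be told apart here. Some of the old mice died before day 4, which makes the day 4 mice survivors.

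Of the 28032 genes in the deposited table, 11642 had a mean of at least 5 CPM (read counts scaled to the size of each library) over the 8 libraries and were tested. Just above this limit were Snap23 and Mtrf1, with means of 5.0037 and 5.0041 CPM, and just below it Mfrp and Dnah10, with means of 4.9987 and 4.9981 CPM. Levels are given in CPM, which are comparable between libraries for 1 gene but not between genes, since they are not divided by gene length. Changes are differences of log2(CPM + 1) between day 4 and control, with the standard error (SE) of the fit, and a gene was called at an unadjusted p below 0.01 in limma's moderated test. The adjusted p given beside it is the Benjamini-Hochberg value over all genes tested.

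As background, bacterial products and cytokines in the blood act on the endothelium of brain vessels, on microglia, the resident macrophages of the brain, and on astrocytes. Adrenal glucocorticoids, released under stress and infection, enter the brain and bind a receptor that activates target genes such as Sgk1 and Fkbp5. The GC content of a gene, the share of guanine and cytosine among its exon bases, is a fixed property of its sequence, so that a change that follows GC content is shared by genes of unlike function.

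The 8 libraries held between 17342861 and 24608450 reads assigned to genes, as estimated from the value of 1 read in each library. The marker genes of the hippocampal neuron fields (16 genes, among them C1ql2 and Calb1) summed to 993 to 1100 CPM in the controls and 1020 to 1120 CPM on day 4. Transcripts encoded by the mitochondrial genome took 4.55% to 5.8% of each control library and 2.77% to 3.19% of each day 4 library. Markers of the choroid plexus (12 genes, among them Ttr), a secretory tissue next to the hippocampus, summed to 27.8 to 57.6 CPM in the controls and 64.9 to 2640 CPM on day 4. Erythrocyte markers (7 genes) summed to 134 to 211 and 3.87 to 185 CPM. Markers of blood leukocytes (15 genes, 1 of them at 0 in all 8 libraries and none above the filter) summed to 0.988 to 2.32 and 2.61 to 4.03 CPM. The library day 4 replicate 3 stood apart from the other day 4 libraries in its choroid plexus genes and in its relation to GC content.

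The change of a gene on day 4 followed its GC content. The genes are illustrated by the start of the coding sequence of C1qtnf4, a secreted C1q-related protein, and Lrrc10b, a leucine-rich repeat protein, and by coding stretches of Arhgap5, a GTPase activating protein, and Ranbp2, a nuclear pore protein, each read from GRCm38 along the transcript, with G and C in capitals:
C1qtnf4, chr2:90889385-90889504, plus strand: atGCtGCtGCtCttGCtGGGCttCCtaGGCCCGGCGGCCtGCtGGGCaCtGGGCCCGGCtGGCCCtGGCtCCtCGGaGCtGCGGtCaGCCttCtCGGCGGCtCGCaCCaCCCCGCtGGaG
Lrrc10b, chr19:10457196-10457315, minus strand: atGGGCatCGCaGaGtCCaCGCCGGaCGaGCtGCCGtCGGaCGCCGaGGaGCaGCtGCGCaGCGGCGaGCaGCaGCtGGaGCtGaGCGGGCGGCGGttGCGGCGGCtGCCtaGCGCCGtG
Arhgap5, chr12:52516248-52516367, plus strand: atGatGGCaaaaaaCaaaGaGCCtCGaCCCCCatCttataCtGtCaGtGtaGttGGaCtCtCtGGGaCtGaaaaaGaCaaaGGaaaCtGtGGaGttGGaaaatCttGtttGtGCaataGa
Ranbp2, chr10:58476157-58476276, plus strand: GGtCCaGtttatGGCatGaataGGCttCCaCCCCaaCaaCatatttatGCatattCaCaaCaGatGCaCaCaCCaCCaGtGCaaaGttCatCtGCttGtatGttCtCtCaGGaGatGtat
These stretches hold 73.3%, 74.2%, 41.7% and 42.5% of G and C. The GC content over all exon bases of each gene, which is the measure used below, was 70.7%, 62.2%, 34.2% and 40.0%.

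C1qtnf4 was at 32.3, 27, 46.8 and 37.4 CPM in the controls and at 68.6, 78.5, 63.3 and 63.1 CPM on day 4. Arhgap5 was at 65.9, 60.4, 65.3 and 67.7 CPM in the controls and at 34.6, 18.7, 35.5 and 38.7 CPM on day 4. The GC-rich gene was above and the GC-poor gene below its control range in each of the 4 day 4 libraries, by log2 changes of 0.93 and -1.05. Lrrc10b (log2 change of 0.86) and Ranbp2 (-0.95) did the same. Relative to genes of similar GC content, as defined below, the changes of the 4 genes were 0.09, -0.30, 0.32 and -0.47 in the order C1qtnf4, Arhgap5, Lrrc10b and Ranbp2, and none of them was called (adjusted p = 0.612, 0.0736, 0.14 and 0.101 by limma). They were chosen as genes whose call was lost, so these values are a description. Without day 4 replicate 3, Arhgap5 (-0.18) and Ranbp2 (-0.24) were called relative to genes of similar GC content, and without day 4 replicate 8, Lrrc10b (0.44) and Arhgap5 (-0.35).

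Over the 11610 genes with an exon GC content, the Spearman correlation of the change with GC content was 0.84 (Pearson 0.78). It is a description across genes, which are not independent replicates and share the 8 libraries. In the decile of genes with the lowest GC content, 31.9% to 41.6%, the median change was -0.52, and 81% of the genes were called lower. In the decile with the highest GC content, 57.6% to 71.3%, the median was 0.44, and 74.2% were called higher. The change was related less closely to exon length, with a Spearman correlation of -0.24.

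**Figure D1:**
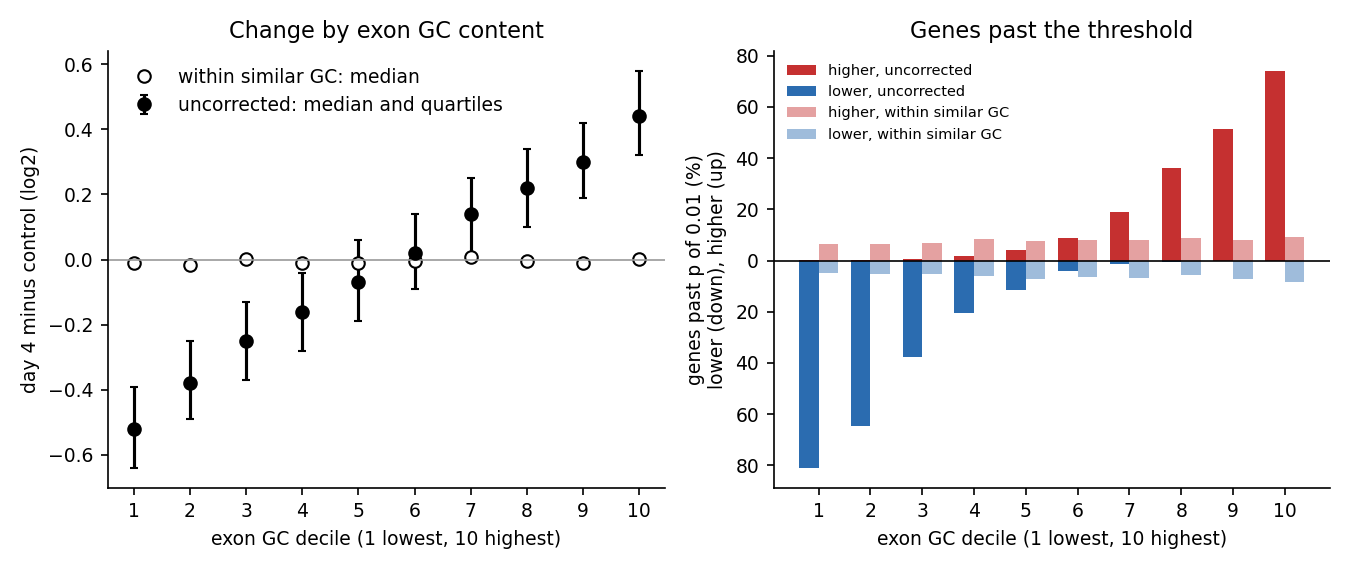
Log2 change on day 4 and the share of genes called, by decile of exon GC content from lowest to highest (1161 genes each), before and within similar GC content. The median change climbs from -0.52 in the lowest to 0.44 in the highest decile, and after the correction 6.46% to 9.04% of the genes in a decile were called higher and 4.82% to 8.53% lower, with both shares largest in the highest decile.

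Relative to the gene means of the libraries compared, every library had a slope on GC content. Because of this centering the slopes balance each other, so opposite signs of the groups follow from a difference between them. The slope of a library's deviation from the gene means, per 10 percentage points of GC content, was -0.23, -0.26, -0.24 and -0.26 in the controls and 0.20, 0.45, 0.16 and 0.16 on day 4. The groups did not overlap, and the slope of day 4 replicate 3 was far above those of the other day 4 libraries. The mean slopes were -0.25 ± 0.0143 (SD, n = 4) and 0.25 ± 0.14 (SD, n = 4), a difference of 0.49, given as a description because the relation to GC content was known when these libraries were chosen. Measured against the means of all 47 libraries, the slopes of the 4 day 4 libraries were 0.18 to 0.47 and those of the 4 controls -0.24 to -0.21. The other 39 libraries lay between -0.37 and 0.28. Among them, old males on day 1 lay between -0.37 and -0.19, and young males on day 4 between 0.01 and 0.26. The controls of the other groups differed as well, with -0.08 to -0.04 in young males, -0.27 to 0.09 in old females and 0.03 to 0.27 in young females. The slopes of the young female controls thus overlapped with those of the old males on day 4. Whether the slope came with the animals or with the handling of the libraries was not tested, and neither extraction nor sequencing batches are given in the sources used here.

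**Figure D2:**
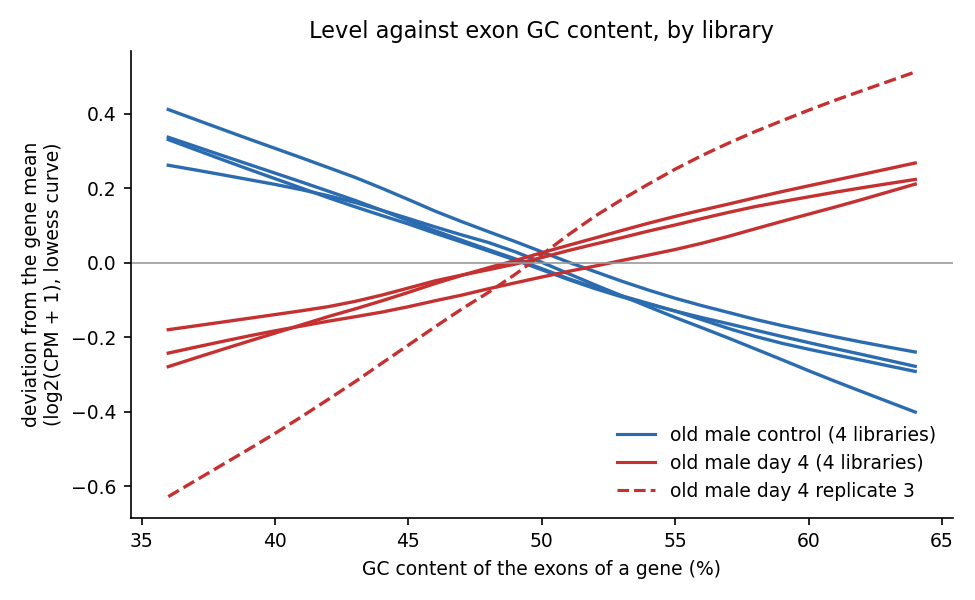
Smoothed deviation of each old male library from the gene means (log2 scale) against exon GC content in percent, 1 line per library, controls and day 4 in different colors. The 4 control lines fall and the 4 day 4 lines climb with GC content, and day 4 replicate 3 has the steepest line, with a slope of 0.45 per 10 percentage points.

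To separate what remains among genes of similar GC content, the smooth curve of each library on GC content was subtracted before the test. A change within similar GC is therefore relative to genes of like composition and holds no statement on the level of a gene as such. The median change over all genes was -0.0185 before and -0.00584 after this step, the SD of the changes over genes fell from 0.381 to 0.239, and the median SD of a gene within a group went from 0.138 to 0.123.

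Without the correction, 4864 of 11642 genes were called (41.8%), 2289 of them higher (19.7%) and 2575 lower (22.1%) on day 4. Within similar GC, 1638 of 11610 genes were called (14.1%), 906 higher (7.8%) and 732 lower (6.3%), and 1200 (10.3%) had an adjusted p below 0.05. The counts of gene lists below are to be set against these shares. A list with a share near 14.1% within similar GC had about as many calls as genes at large. The libraries of the groups did not overlap for 5482 genes (47.1%) before and 2128 genes (18.3%) after the correction. Of the genes called higher without it, 566 (24.8%) were called higher within similar GC, 1711 (74.9%) were not called and 8 turned to lower. Of the genes called lower, 401 (15.6%) were called lower, 2151 (83.9%) were not called and 13 turned to higher. A further 327 higher and 323 lower genes were called only within similar GC. Of the 1638 calls, 833 (50.9%) held in each of the 8 fits that left out 1 library, and 0 turned. Without day 4 replicate 3, 4890 and 1790 genes were called before and after the correction.

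Genes called in both fits, with no overlap of the groups and a mean of at least 20 CPM, were ranked by their change within similar GC. The 10 largest rises among them were those of Ttr, Gm12070, Plin4, Vwf, Sgk1, Ly6c1, Apod, Vim, Ndufc2 and Ly6a. Plin4, which coats lipid droplets, was at 2.42, 10.2, 3.69 and 7.1 CPM in the controls and at 59.1, 65.7, 38.3 and 24.6 CPM on day 4. Vwf, the clotting factor that endothelial cells store and release, was at 13.2, 26.9, 19.4 and 18.2 CPM and then at 76.4, 73.1, 53.1 and 95.8 CPM. The lowest day 4 library of each gene was well above the highest control. Their changes within similar GC were 2.57 ± 0.34 (adjusted p = 0.00205) and 1.74 ± 0.19 (adjusted p = 0.000614 by limma). Apod, a lipid carrier made by glia and perivascular cells, was at 182, 176, 200 and 183 CPM in the controls and at 412, 604, 273 and 245 CPM on day 4, a change of 1.0 ± 0.22 (adjusted p = 0.0169). Vim, the intermediate filament of reactive astrocytes and vessel walls, and Ndufc2, a subunit of complex I of the respiratory chain, rose by 0.98 ± 0.07 and 0.97 ± 0.11 (adjusted p = 1.65e-05 and 0.000614). Sgk1, Ly6c1 and Ly6a are described with their groups below.

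Ttr and Gm12070 are less certain. Ttr, the thyroxine carrier of the choroid plexus, was at 5.56, 2.98, 30.7 and 2.13 CPM in the controls and at 35.2, 2480, 213 and 151 CPM on day 4. Its change was 5.20 ± 1.05 (adjusted p = 0.0125 by limma), or 4.04 without day 4 replicate 3. Ttr is itself among the choroid plexus markers summed above and made up most of that sum on day 4. The sum is therefore no separate evidence, and the part that dissection had in the change of Ttr was not tested. Over the other 43 libraries of the series Ttr was between 1.53 and 4670 CPM, so that the day 4 levels were within the range of the series. Gm12070, a processed pseudogene, went from 2.53, 8.08, 2.16 and 4.4 CPM to 33.3, 45.9, 46 and 17.7 CPM (2.58 ± 0.33). Its controls alone were on average below the filter, so it passed through its day 4 levels. Reads of a processed pseudogene cannot be told from those of its parent gene or near-identical copies here, so this level is uncertain.

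Among the 10 genes with the largest fall by the same rule, Ide, the insulin-degrading enzyme that also cleaves amyloid beta, was at 67.1, 69.2, 75 and 72.9 CPM in the controls and at 28.4, 25.6, 29.5 and 30.5 CPM on day 4. Fgfr2, a receptor for fibroblast growth factors, was at 49.9, 47, 53.7 and 51.5 CPM and then at 38.6, 33.3, 32.3 and 28.8 CPM. The groups of both genes were far apart relative to their spread, with changes within similar GC of -0.95 ± 0.06 (adjusted p = 6.54e-06) and -0.68 ± 0.08 (adjusted p = 0.00132 by limma). Fgf13, a regulator of sodium channels in neurons, fell by 0.54 (SE 0.08), and Ppp2cb, a catalytic subunit of protein phosphatase PP2A, fell by 0.52 (SE 0.07). Npy and Stxbp6 are given with the neuronal genes. Plekhh1 (-0.56) and Mettl9 (-0.53) share 14.8% and 12.2% of their exon bases with another gene, and Gm8430 (-1.09) and Gm9385 (-0.58) are pseudogenes, so these 4 are uncertain.

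**Figure D3:**
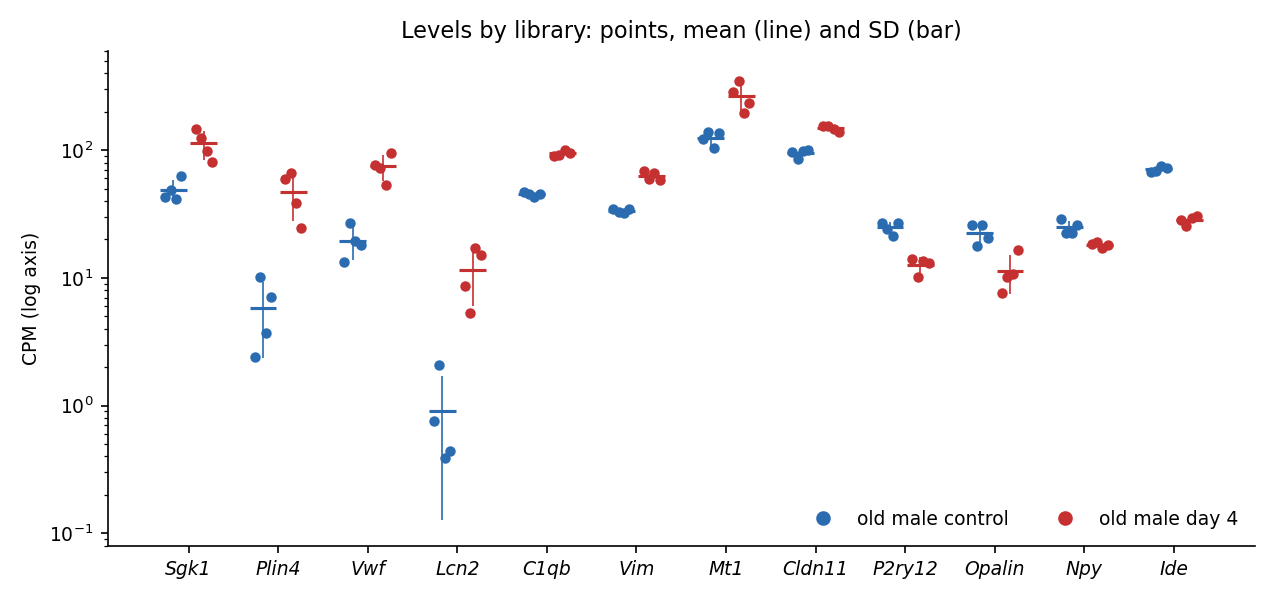
CPM of 12 genes in the 4 control and 4 day 4 libraries of old males (log scale), 1 point per library, with mean and SD. Sgk1, Plin4, Vwf, Lcn2, C1qb, Vim, Mt1 and Cldn11 were higher and P2ry12, Opalin, Npy and Ide lower on day 4, and the groups overlap in none of them.

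Most genes of the glucocorticoid response rose. The list holds 21 genes that the study named as glucocorticoid targets in these libraries, so neither its direction nor its share of calls is independent evidence. Of the 21 genes, 16 were called higher without the correction (76.2%, median change 0.61), beside 41.8% of all genes called. Within similar GC, 14 were called higher (66.7%, median 0.46), beside 14.1% of all genes called. In both fits 0 were called lower. Of the 14 calls, 10 held in each of the fits without 1 library.

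Sgk1, a kinase that regulates ion transport and a direct target of the glucocorticoid receptor, was at 43.2, 48.7, 41.4 and 62.9 CPM in the controls and at 147, 125, 99.1 and 80.7 CPM on day 4. Sdc4, a heparan sulfate proteoglycan of the cell surface, was at 43.6, 48.8, 41.4 and 48.8 CPM and then at 82, 76.3, 75.5 and 78.1 CPM. Ddit4, an inhibitor of mTOR signaling, was at 20.5, 19.4, 22.3 and 27.6 CPM and then at 63.2, 66.3, 52.1 and 43.9 CPM. In these 3 genes, as in Gjb6, a gap junction protein of astrocytes, the groups did not overlap. The changes within similar GC were 1.19 ± 0.16 for Sgk1, 0.81 ± 0.06 for Sdc4, 0.91 ± 0.11 for Ddit4 and 0.72 ± 0.08 for Gjb6 (adjusted p = 0.00216, 3.25e-05, 0.00133 and 0.000731 by limma).

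Cdkn1a, a cell cycle inhibitor that is also a p53 target, was at 4.93, 4.05, 4.39 and 5.29 CPM in the controls and at 19.2, 20.3, 14.1 and 7.84 CPM on day 4 (1.32 ± 0.22, adjusted p = 0.00475). Its controls alone were on average below the filter, so it passed through its day 4 levels. Fkbp5, a chaperone that dampens the receptor's response to hormone, rose by 0.70 ± 0.10 (adjusted p = 0.00253). Arl4d (0.87), Il6ra (0.84), Sult1a1 (0.82), Nfkbia (0.68), Klf15 (0.46), Tsc22d3 (0.46), Rhob (0.27) and Tob2 (0.27) were also called higher. The calls of Tsc22d3, Tob2, Sult1a1 and Rhob held in 2, 4, 6 and 6 of the 8 fits without 1 library. The 7 genes that were not called had changes from -0.10 (Sesn1) to 0.31 (Wipf3), with Rhou (0.25), Errfi1 (0.24), Pdk4 (0.19), Klf9 (0.16) and Arhgef3 (0.12) between them. Without day 4 replicate 3, where Klf9 was at 83.2 CPM against 119 to 124 CPM in the other day 4 libraries, Klf9 was called (0.28). Wipf3 was called without control replicate 4 (0.37), and Rhou without day 4 replicate 5 (0.29) or replicate 8 (0.31). For the p53 targets as a list, 2 of 11 genes were called higher (Cdkn1a, and Zmat3 with 0.27) and 1 lower (Phlda3, -0.40).

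The promoter of Sgk1 holds the full palindrome to which the glucocorticoid receptor binds as a dimer, AGAACA and TGTTCT with 3 bases of any kind between them. The stretch below is chr10:21993641-21993790 on the plus strand (RefSeq, GRCm38.p6), with the motif in capitals:
Sgk1 promoter: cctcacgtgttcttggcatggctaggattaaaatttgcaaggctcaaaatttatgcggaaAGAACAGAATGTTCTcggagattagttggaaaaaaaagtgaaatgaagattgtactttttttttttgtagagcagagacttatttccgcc
The motif begins 189 bases before a start site at position 21993890. Sgk1 has 6 promoter windows, 1 for each annotated start, and the palindrome was in 1 of them. Windows ran from 250 bases before to 50 bases after each start. The palindrome, whose fixed bases read alike on both strands, was in 3 of the 32851 promoter windows (0.00913%) and in a window of 1 of the 21 glucocorticoid genes. Its first part alone, AGAACA on either strand, was in 17.6% of the 34 windows of the list and in 19% of all windows. No match says only that these letters are not in that window.

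Most tested genes of the acute phase response, which STAT3 and C/EBP factors drive under the cytokine IL-6, rose. Of 20 genes 12 passed the filter, and 9 of these (75%) were called higher and 0 lower within similar GC, with a median of 0.48. Of the 9 calls, 6 held in each fit without 1 library. Il6ra, 1 of the 9, was also named by the study from these libraries. Lcn2, an iron-binding protein of infected tissue, was at 0.752, 2.07, 0.392 and 0.441 CPM in the controls and at 8.57, 5.27, 17 and 15.1 CPM on day 4. It passed the filter only through its day 4 levels, so its call is no separate support for the count above. Cebpd, a transcription factor of the acute phase, was at 4.97, 5.54, 4.43 and 5.98 CPM and then at 13.1, 14, 10.7 and 11.4 CPM. Both were above the control range in all 4 day 4 libraries, with changes within similar GC of 2.46 ± 0.35 and 1.0 ± 0.10 (adjusted p = 0.00233 and 0.000447 by limma). Serpina3n, a protease inhibitor of reactive astrocytes, was at 51.5, 56.8, 37.2 and 55.9 CPM and then at 93, 89, 104 and 70 CPM (0.70 ± 0.14, adjusted p = 0.0119). Il6ra, the receptor chain for IL-6, was at 5.27, 5.75, 4.47 and 5.25 CPM and then at 12.8, 9.52, 11.4 and 8.05 CPM (0.84 ± 0.13, adjusted p = 0.00423). The 8 genes under the filter include Socs3, which STAT3 induces and which inhibits it, with means of 1.52 and 3.55 CPM in the controls and on day 4, and Icam1, an adhesion molecule of activated endothelium, with 2.18 and 5.88 CPM. These were not tested.

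Of the 11 immune genes that the study named from these libraries, which makes neither their direction nor their share of calls independent evidence, 10 passed the filter. All 10 were called higher without the correction (median 0.77), and 9 of 10 within similar GC (90%, median 0.59). Beside the genes described with the groups above and below, they include Il4ra, a receptor for type 2 cytokines (0.45), Stat3 (0.27) and Jak3, a kinase of cytokine receptors (0.39). The calls of Stat3 and Jak3 held in 3 of the 8 fits without 1 library each. Sh2b2, the gene under the filter, had means of 3.1 and 4.83 CPM. C3, the central complement protein, was at 7.82, 5.58, 6.43 and 7.7 CPM in the controls and at 10.6, 8.2, 24.5 and 12.8 CPM on day 4. It was higher in all day 4 libraries but not called within similar GC (0.65 ± 0.26, adjusted p = 0.13), and without day 4 replicate 3 it was (0.88).

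Complement proteins tag cells and synapses for removal by microglia. Of 16 genes 9 passed the filter, and 5 (55.6%) were called higher and 0 lower within similar GC, with a median of 0.54. C1qa and C4b were also named by the study from these libraries, so this count is in part no separate support. C1qb was at 47.4, 45.7, 43 and 45.7 CPM in the controls and at 90, 91.7, 101 and 95 CPM on day 4. C4b was at 180, 168, 161 and 167 CPM and then at 327, 288, 388 and 250 CPM. The groups were separate in both genes, and in C1qa and C1qc, which encode the other chains of C1q, the molecule that starts the classical pathway. The changes within similar GC were 0.68 ± 0.08 for C1qb, 0.54 ± 0.10 for C1qc, 0.60 ± 0.11 for C1qa and 0.61 ± 0.13 for C4b (adjusted p = 0.000958, 0.00703, 0.00903 and 0.0138 by limma).

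Microglial genes moved in both directions. In the hippocampus as a whole, a change in the number of cells of a type and a change in the RNA of each cell cannot be told apart. Of 15 genes of activated microglia that passed the filter, 7 were called higher and 1 lower within similar GC (median 0.34). Among the higher ones, Ctss, Fcgr3 and Trem2 were also named by the study from these libraries, so this count is in part no separate support. Ctss, the lysosomal protease cathepsin S, was at 55.6, 50.2, 47.4 and 48.7 CPM in the controls and at 74.8, 67.3, 76.5 and 58 CPM on day 4 (0.64 ± 0.10, adjusted p = 0.00314). Fcgr3, a receptor for antibody (0.59 ± 0.11), Trem2, a lipid-sensing receptor (0.49 ± 0.11), and Apoe, the lipid carrier (0.40 ± 0.10), were also higher, and Lpl, a lipase, was lower (-0.50 ± 0.10). Apoe and Lpl are also expressed by other cells of the hippocampus.

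Of 11 genes of homeostatic microglia, 2 were called lower and 2 higher (median -0.12). P2ry12, the purine receptor that guides microglial processes, was at 26.9, 24, 21.3 and 27 CPM in the controls and at 14.1, 10.1, 13.5 and 13.1 CPM on day 4. The groups did not overlap, and the change within similar GC was -0.42 ± 0.09 (adjusted p = 0.0148 by limma). P2ry13, a receptor of the same family, fell by 0.35 (SE 0.10), a call that held in 5 of the 8 fits without 1 library. Fcrls (0.43 ± 0.11) and Csf1r, the receptor on which microglia depend (0.29 ± 0.09), were higher, the latter in 3 of the 8 fits. The markers Cx3cr1 (-0.19, adjusted p = 0.257) and Tmem119 (0.11, adjusted p = 0.465), added after their values were seen, were not called. The uncorrected value of Tmem119, with a GC content of 58.8%, was 0.52.

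Interferon-stimulated genes were mostly under the filter. Of 32 genes 13 passed it, and 5 (38.5%) were called higher and 0 lower within similar GC, with a median of 0.32, of which 2 held in each fit without 1 library. Ifitm3, an antiviral membrane protein that endothelial cells and microglia express, was at 4.35, 4.22, 6.62 and 6.14 CPM in the controls and at 13.1, 12.3, 15.5 and 10.2 CPM on day 4 (1.03 ± 0.15, adjusted p = 0.00317). H2-D1, a class I histocompatibility molecule, was at 40.7, 33.1, 39.7 and 35.1 CPM and then at 73.5, 55.3, 58.8 and 51.7 CPM (0.48 ± 0.11, adjusted p = 0.0219). H2-K1, of the same family (0.38), and Irf9, part of the transcription factor that type I interferons activate (0.32), were also called. The class I genes are near-identical in places, so their shares of reads are uncertain. The call of H2-K1 was lost without control replicate 2 (0.35) and that of Irf9 without control replicate 1 (0.31) or day 4 replicate 5 (0.25).

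Within similar GC, endothelial genes were higher where they were called. Of 20 genes tested 7 were called higher (35%) and 0 lower, with a median of 0.21, and 4 of the calls held in each fit without 1 library. Without the correction 9 were called higher and 2 lower (median 0.25). Ly6c1, a surface protein of brain endothelium, was at 16.8, 20.5, 16.8 and 18.8 CPM in the controls and at 36.2, 42.5, 28.5 and 34.2 CPM on day 4. Slc2a1, the glucose transporter of the blood-brain barrier, was at 52.5, 56.7, 57.5 and 54.9 CPM and then at 137, 113, 90.2 and 96.2 CPM. The groups were separate in both, and in Ly6a, a relative of Ly6c1. The changes within similar GC were 1.02 ± 0.11, 0.74 ± 0.10 and 0.96 ± 0.11 for Ly6c1, Slc2a1 and Ly6a (adjusted p = 0.000614, 0.00205 and 0.000772 by limma). Of 7 pericyte and smooth muscle genes 0 were called within similar GC. Of 19 genes of collagen and the extracellular matrix, 8 were called higher and 0 lower (median 0.05). Among these were Igfbp7, a binding protein of growth factors secreted by vessels (0.68 ± 0.13), and Lamb2, a laminin of basement membranes (0.32 ± 0.08). Dcn, a small proteoglycan (0.55), and Timp3, a protease inhibitor (0.29), were called only within similar GC, and 21.3% of the exon bases of Timp3 overlap another gene.

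Of 16 fatty acid and PPAR target genes, 4 were called higher and 0 lower (median 0.16). Ucp2, a mitochondrial carrier, was at 10.2, 9.84, 7.57 and 9.99 CPM in the controls and at 29, 34, 20.9 and 18.1 CPM on day 4 (1.10 ± 0.15, adjusted p = 0.00216), and Plin4 is given above. Hadhb (0.39) and Hadha (0.28), the subunits of the mitochondrial trifunctional protein of fatty acid oxidation, were called only within similar GC, Hadha in 6 of the 8 fits without 1 library. Of 12 genes of metal and iron handling, 4 were called higher and 0 lower (median 0.24). Mt1, a zinc-binding metallothionein, was at 122, 138, 103 and 136 CPM and then at 285, 348, 196 and 236 CPM (0.85 ± 0.13, adjusted p = 0.00317). Ftl1, the ferritin light chain (0.66), shares 34.6% of its exon bases with another gene and is uncertain. The calls of Cp, ceruloplasmin (0.61), and Hmox1, heme oxygenase (0.44), held in 5 and 3 of the 8 fits. Of 18 circadian clock genes 3 were called higher (16.7%, beside 14.1% of all genes called) and 0 lower (median -0.01): Bhlhe40 (0.39 ± 0.06), Per2 (0.45 ± 0.10) and Ciart (0.34 ± 0.11, held in 3 of the 8 fits).

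Astrocyte genes moved in both directions, with 4 of 19 called higher, 2 called lower and a median of 0.01. Vim was at 34.9, 32.6, 32.1 and 34.3 CPM in the controls and at 68.6, 59, 66 and 58.6 CPM on day 4, with no overlap. Aldoc, a glycolytic aldolase (0.40 ± 0.06), and Glul, glutamine synthetase (0.33 ± 0.08), were higher as well. S100b, a calcium-binding protein (-0.35 ± 0.09), and Mlc1, a membrane protein of astrocyte endfeet (-0.22 ± 0.07), were lower. The call of S100b was lost without control replicate 4 (-0.31), and that of Mlc1 held in 2 of the 8 fits. The markers Gfap and Aqp4 were added after their values were seen. Gfap, the filament protein of astrocytes, was at 428, 396, 403 and 429 CPM in the controls and at 599, 449, 751 and 493 CPM on day 4, and Aqp4, the water channel of the endfeet, was at 85.9, 70.3, 82.8 and 76.8 CPM and then at 50.5, 24.2, 54.9 and 52.8 CPM. Within similar GC they were not called with all 8 libraries (0.31, adjusted p = 0.187, and -0.46, adjusted p = 0.1), and were called without day 4 replicate 3 (0.44 and -0.24), Aqp4 also without day 4 replicate 5 (-0.56).

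Of 21 genes of oligodendrocytes and myelin, 6 were called lower and 1 higher, with a median of -0.11. The 7 calls held in each fit without 1 library. Opalin, a membrane protein of mature oligodendrocytes, was at 26.1, 17.6, 25.7 and 20.6 CPM in the controls and at 7.66, 10.2, 10.8 and 16.6 CPM on day 4 (-0.78 ± 0.19, adjusted p = 0.0253). Ermn, a cytoskeletal protein of myelin, was at 60.4, 49.5, 54.8 and 59.2 CPM and then at 31, 24.2, 30.5 and 29.8 CPM (-0.36 ± 0.07, adjusted p = 0.00995). Both were below the control range in all 4 day 4 libraries. Gal3st1, which makes sulfatide, was lower only relative to genes of similar GC content (-0.50 ± 0.10). Cldn11, the tight junction protein of myelin, went the other way, from 96.7, 85, 98.9 and 100 CPM to 155, 154, 146 and 139 CPM (0.58 ± 0.07, adjusted p = 0.000731). The major myelin gene Mbp (-0.09, adjusted p = 0.521) was not called, and was named after its values were seen. Among 11 genes of oligodendrocyte precursors only Olig2 was called (9.09%, beside 14.1% of all genes), with a change of -0.28 and in 3 of the 8 fits. Of 24 genes of sterol biosynthesis, an activity of myelinating cells and astrocytes, 3 were called lower and 2 higher (median -0.12). They include Fdft1 (-0.40) and Fdps (-0.29) among the lower ones, and Ebp (0.47) and Tm7sf2 (0.28). Of these 4, all but Ebp share 12.1% to 26.7% of their exon bases with another gene, and the call of Fdps held in 4 of the 8 fits.

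Within similar GC, markers of inhibitory interneurons were lower where they were called, in 4 of 12 genes (33.3%, beside 14.1% of all genes, median -0.16), and 0 were higher. Without the correction 2 were called higher and 4 lower (median -0.06). Npy, neuropeptide Y, was at 28.8, 22.4, 22.3 and 26.1 CPM in the controls and at 18.5, 19, 17.2 and 18.1 CPM on day 4. Gad1, which makes GABA, was at 254, 239, 251 and 268 CPM and then at 202, 173, 201 and 205 CPM. The groups did not overlap in either, and the changes within similar GC were -0.62 ± 0.09 and -0.26 ± 0.06 (adjusted p = 0.00224 and 0.0227 by limma). The other gene for this enzyme, Gad2, was lower (-0.24) in 6 of the 8 fits without 1 library. Sst, somatostatin, was called only within similar GC (-0.18) and in 1 of the 8 fits, and its CPM was 128 to 130 in the controls and 124 to 161 on day 4. In the hippocampal fields, 2 of 13 genes were called lower and 1 higher (23.1%, median -0.04). Stxbp6, a SNARE-binding protein, was at 72.9, 65, 63.4 and 82.3 CPM and then at 40.9, 37.4, 37.9 and 40.8 CPM (-0.55 ± 0.08, adjusted p = 0.00224). C1ql2, of mossy fiber synapses (-0.34), and Calb1, calbindin (0.37, in 3 of the 8 fits), were called only within similar GC, and their uncorrected changes of 0.24 and -0.27 had the opposite sign. The change of Calb1 within similar GC was -0.11 without the filter on low values. Of 9 genes of newborn neurons and proliferation, Sox11 (0.41) and Tubb2b (0.25) were called higher, in 4 and 2 of the 8 fits, and Nes, the filament of neural progenitors, was called lower (-0.60 ± 0.14, in all 8). Of 10 markers of neighboring brain regions, 1 was called (10%, beside 14.1% of all genes), lower.

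Receptors, channels and synaptic proteins lost most of their calls within similar GC, as did all genes, of which 74.9% of the higher and 83.9% of the lower calls were lost. All 8 synaptic genes that the study named from these libraries were called higher without the correction (median 0.56). Within similar GC, 2 of the 8 were called, with a median of 0.14. Nrxn2, a presynaptic adhesion molecule, was at 197, 176, 182 and 201 CPM in the controls and at 321, 333, 311 and 310 CPM on day 4, and its change went from 0.75 without to 0.35 ± 0.06 with the correction (adjusted p = 0.0059). Glul is the other. The remaining 6 genes had a GC content between 56.6% and 62.0%, and Ephb4 (0.32), Jph3 (0.17), Cacnb1 (0.11), Grasp (0.10), Mink1 (-0.09) and Cacna1a (-0.10) were not called. Ephb4 was called without control replicate 3 (0.42), and Jph3 without day 4 replicate 3 (0.20) and without control replicate 2 (0.21). GABA-A receptor subunits, with a median GC content of 42%, went from 10 of 12 called lower (median -0.53) to 2 (16.7%, beside 14.1% of all genes, median -0.14), Gabra5 (-0.29) and Gabra4 (-0.26, in 6 of the 8 fits). Genes of the postsynaptic scaffold, with a median GC content of 54.9%, went from 14 of 24 higher and 3 lower (median 0.37) to 4 higher and 0 lower (also 16.7%, median 0.09). Dlg4, the central scaffold protein, was at 636, 594, 599 and 646 CPM in the controls and at 832, 875, 772 and 812 CPM on day 4 (0.34 ± 0.06, adjusted p = 0.00505). Dlgap3 (0.37), Shank1 (0.36) and Dlgap4 (0.17, in 3 of the 8 fits), which bind to it or to each other, were the others.

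Immediate early genes, which neuronal activity induces, went from 9 higher and 3 lower of 18 to 2 higher (11.1%, beside 14.1% of all genes called), Junb (0.53 ± 0.08) and Nptx2 (0.35 ± 0.09). The call of Nptx2 was lost without day 4 replicate 5 (0.29). Glutamate receptors went from 4 higher and 7 lower of 24 to 2 and 2 (16.7%, near the 14.1% of all genes). The higher ones were Grm2, a presynaptic metabotropic receptor (0.50 ± 0.08), and Grik5, a kainate receptor subunit (0.20, in 3 of the 8 fits). The lower ones were the NMDA receptor subunits Grin2c (-0.30, in 6 fits) and Grin2a (-0.29, in 2 fits). Presynaptic genes went from 7 higher and 5 lower of 29 to 4 and 3 (24.1%). Beside Nrxn2, these were Syp (0.28), Snap25 (0.26) and Erc1 (0.22) (in 4, 2 and 2 fits), and the vesicle proteins Syn1 (-0.40), Syn2 (-0.26) and Syt1 (-0.18, in 1 fit). The CPM of Snap25 was lower on day 4, with an uncorrected change of -0.26 that was called as well, and its change within similar GC was -0.06 without the filter on low values. That of Erc1 was -0.05 with the GC content of its longest transcript. Syp and Erc1 share 16.8% and 11.8% of their exon bases with another gene. Voltage-gated channels went from 10 higher and 11 lower of 37 to 1 and 2 (8.11%, beside 14.1% of all genes). Hcn2, a pacemaker channel, was lower than genes of its GC content of 65.4% by -0.68 ± 0.08 (adjusted p = 0.00105), while its CPM was 122 to 140 in the controls and 121 to 140 on day 4. Scn4b, a sodium channel subunit (-0.53), and Cacna1h, a T-type calcium channel (0.34, in 6 fits), were the others.

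Histone-modifying enzymes went from 16 higher and 13 lower of 53 to 5 higher and 0 lower (9.43%, beside 14.1% of all genes), and all 5 calls held in each fit without 1 library. The lowest p values were those of the deacetylases Hdac4 (0.44 ± 0.08) and Hdac5 (0.23 ± 0.06), the demethylase Kdm2a (0.26 ± 0.06) and the acetyltransferase Crebbp (0.27 ± 0.07). Hdac4, which shares 22.4% of its exon bases with another gene, was at 47.4, 48.5, 44.8 and 46.8 CPM in the controls and at 71.6, 63.6, 67.2 and 55.4 CPM on day 4. In the unfolded protein and heat shock lists, 4 of 23 genes were higher and 3 lower (median 0.02). The chaperones of the endoplasmic reticulum Sdf2l1 (0.63), Pdia4 (0.36) and Pdia6 (0.29) and the heat shock protein Hspa1b (0.49), which has a near-identical copy, were higher. Hsp90aa1 (-0.26), Dnajb9 (-0.29) and Atf4 (-0.38), the transcription factor of the integrated stress response, were lower, Atf4 only within similar GC. The calls of Pdia6, Dnajb9 and Hspa1b held in 4, 3 and 6 of the 8 fits.

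**Figure D4:**
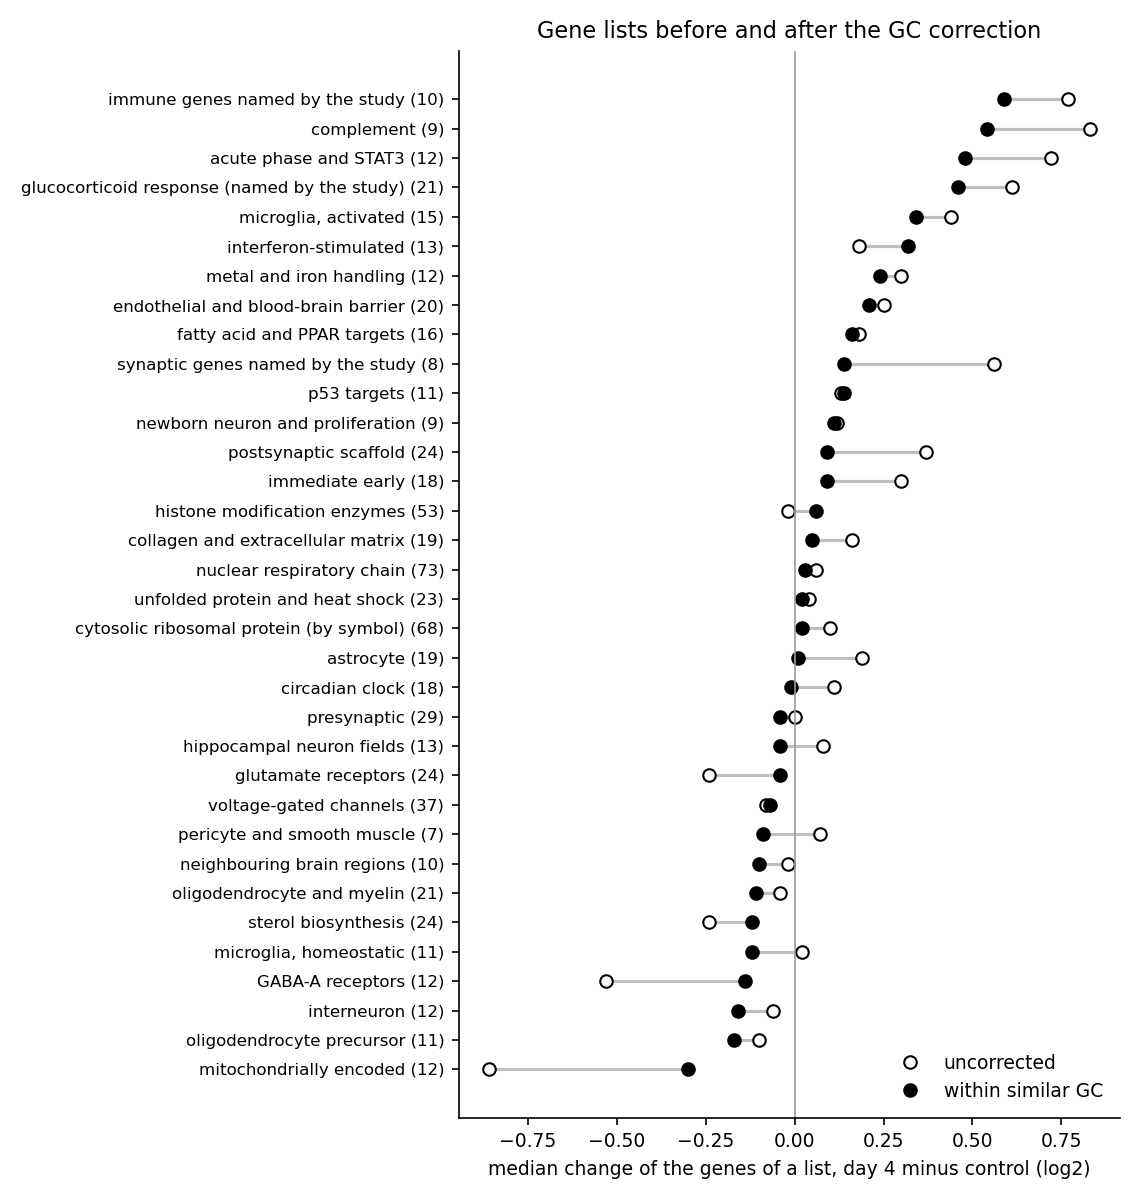
Median log2 change of each gene list with at least 7 genes tested, without the correction and within similar GC, for old males on day 4 against control. The medians of the immune, complement, acute phase and glucocorticoid lists go from 0.77, 0.83, 0.72 and 0.61 to 0.59, 0.54, 0.48 and 0.46, and those of the postsynaptic scaffold and GABA-A receptors go from 0.37 to 0.09 and from -0.53 to -0.14. The immune list shares genes with other lists, so their medians are not separate evidence.

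The transcripts of the mitochondrial genome had a median GC content of 37.1%. All 12 that were tested were called lower without the correction (median -0.86), and 4 within similar GC (median -0.30), the subunits of complex I mt-Nd2, mt-Nd5 and mt-Nd4l and the ATP synthase subunit mt-Atp8. mt-Nd2 was at 1910, 1690, 1650 and 2510 CPM in the controls and at 804, 752, 801 and 1000 CPM on day 4, with no overlap, and its change within similar GC was -0.52 ± 0.11 (adjusted p = 0.0163 by limma). It was the only of the 4 that held in each fit without 1 library. The call of mt-Atp8 (-0.57) was lost without day 4 replicate 2 (-0.46), and 21.1% of its bases overlap another gene. Copies of mitochondrial genes in the nuclear genome can share these reads. Of the 73 respiratory chain genes of the nucleus, 13 were called higher and 8 lower within similar GC (median 0.03). The higher ones were led by Ndufc2, Ndufb7 (0.60 ± 0.09), Atp5l (2.05 ± 0.33) and Atp5b (0.40 ± 0.08), and the lower ones by Atp5c1 (-0.46 ± 0.08), Ndufb9 (-0.38), Atp5k (-0.60) and Sdhb (-0.42 ± 0.10). Ndufb9 shares 19.5% of its exon bases with another gene. Atp5l was at 34.7, 21.1, 81.5 and 44.8 CPM in the controls and at 130, 140, 159 and 77.4 CPM on day 4, and between 21.1 and 199 CPM over the other 43 libraries. The controls of young females were at 79.6 to 109 CPM and those of old females at 63.1 to 112 CPM, which overlaps with the old males on day 4. Those of young males were at 27.9 to 64.2 CPM. Of 68 genes of the cytosolic ribosome, which have many pseudogenes, 11 were called higher and 9 lower (median 0.02).

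The choroid plexus genes Ttr and Clic6 were called higher of 3 that were tested. Clic6, a chloride channel protein of that epithelium, was at 1.25, 1.94, 1.69 and 1.89 CPM in the controls and at 2.87, 35.4, 5.91 and 4.48 CPM on day 4 (1.55 ± 0.50, in 3 of the 8 fits, and 0.87 without day 4 replicate 3). It passed the filter only through its day 4 levels, above all that of replicate 3. Of 4 erythrocyte genes tested, 0 were called, with a median of -1.63 and wide spread between libraries.

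The levels of Ide and of genes near it are given as a description, without a test of position. It lies on chromosome 19 from 37268743 to 37337852 in GRCm38. In the 4 day 4 libraries Ide was at 25.6 to 30.5 CPM, and in the other 20 libraries labelled male it was at 51.3 to 75 CPM. The 23 libraries labelled female ranged from 27.8 to 67.2 CPM, with 30.6 to 34.7 CPM in the old female controls. The old male controls were thus above all old female controls, and the old male day 4 libraries were below them. Btaf1, a regulator of the TATA-binding protein from 36926079 to 37012752 on the same chromosome, was at 36.1, 39.5, 39.5 and 36.7 CPM in the controls and at 22.6, 17.4, 27.2 and 23.9 CPM on day 4 (-0.29 ± 0.09, adjusted p = 0.0505, in 3 of the 8 fits). Cpeb3, which lies between them from 37021291 to 37208601, was at 43.4 to 49 CPM and 30.7 to 48.3 CPM, with a change within similar GC of -0.01. Fgfbp3, a gene under the filter, was at 3.47 to 5.39 CPM and 1.64 to 2.18 CPM. Btaf1, Cpeb3 and Fgfbp3 were named after their values were seen. Whether the genotype or copy number of this region differed between the mice was not tested.

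The correction turned or added some calls. Chordc1, a cochaperone of HSP90 with a GC content of 35.3%, was at 43, 37.3, 39 and 42.6 CPM in the controls and at 33.2, 26.7, 35.3 and 31.2 CPM on day 4. It was called lower without (-0.35) and higher with the correction (0.35 ± 0.07), since genes of its GC content were lower still. Rian, a long noncoding RNA (-0.24 to 0.33), and Trnp1, a regulator of progenitor division (0.36 to -0.28), turned in the same way. These turns depend on the filter: with all genes of a mean above 0 in the fit, the changes within similar GC were -0.22 for Chordc1, -0.06 for Rian and 0.04 for Trnp1. Among the genes called only within similar GC and with a mean of at least 20 CPM, the largest changes were those of Pura, a nucleic acid binding protein of neurons (0.67 ± 0.13), Dcn and Ndufa4, a subunit of the respiratory chain (0.52 ± 0.14), which were higher, and Hcn2, Gpx4, which protects membrane lipids from peroxidation (-0.66 ± 0.09), and the pseudogene Gm4617 (-0.66 ± 0.17), which were lower. Dcn was at 34.7 to 43 CPM in the controls and 32.6 to 42.5 CPM on day 4. The genes of such a mean with the largest changes whose call was lost also include Gm21986 (0.95 to 0.79), of which 82.2% overlaps another gene, and Gm28437 (-0.95 to -0.42), a pseudogene like a mitochondrial gene. Both are uncertain. Without day 4 replicate 3 both were called within similar GC (1.03 and -0.57), Gm21986 also without control replicate 2 (1.0).

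The day 4 change of old males was then compared with that of old females (4 control and 3 day 4 libraries) as a difference of differences within similar GC, in 1 fit. It differed at an unadjusted p below 0.01 in 758 of 11610 genes (6.53%), 372 toward a higher (3.2%) and 386 toward a lower value (3.32%) for old males, and at an adjusted p below 0.05 in 71 genes (0.612%). Without old female day 4 replicate 7, 452 genes differed at an unadjusted p below 0.01, and without old male day 4 replicate 3, 1136 genes. The 71 became 17 without old female day 4 replicate 7, 326 without old male day 4 replicate 3 and 386 without old female control replicate 2. Without the correction for GC content 1757 genes differed (15.1%), of which 33.4% had the higher change in old males, against 49.1% of the 758. The 5 with the largest difference toward a higher change in old males, among those past the adjusted threshold, were C4b (1.47 ± 0.21, adjusted p = 0.0036), Vim (1.07 ± 0.16, adjusted p = 0.00452), H2-D1 (1.05 ± 0.23, adjusted p = 0.0459), Ctss (0.96 ± 0.13, adjusted p = 0.0029) and Serpina3n (0.90 ± 0.19, adjusted p = 0.0396 by limma).

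C4b was at 255 to 351 CPM in the old female controls and at 146, 156 and 215 CPM in the old females on day 4, against 161 to 180 CPM and 250 to 388 CPM in the old males. Ctss was at 51.5 to 65.6 CPM in the old female controls and at 45.1, 49.1 and 50.4 CPM on day 4. The controls of old females were all above those of old males for C4b and overlapped with them for Ctss, and on day 4 all old males were above all old females in both genes. Vim was at 41.2 to 71.3 CPM in the old female controls and at 47.2, 50.4 and 54.9 CPM on day 4. The change of C4b in old females was -0.87 ± 0.14 (adjusted p = 0.0152), that of Vim -0.10 ± 0.14 (adjusted p = 0.771) and that of Ctss -0.32 ± 0.08 (adjusted p = 0.0743 by limma). Among the genes described above, C1qb (0.78), Sdc4 (0.58), Cebpd (0.76), Stat3 (0.49), Csf1r (0.51), Cldn11 (0.78), Lamb2 (0.61) and Ndufc2 (0.88) also had an adjusted p below 0.05, all with the higher change in old males. By the same rule, the 5 with the largest difference toward a lower change in old males were Ide (-1.14 ± 0.15, adjusted p = 0.00238), Npy (-0.69 ± 0.15, adjusted p = 0.0396) and the pseudogenes Gm8971 (-1.05), Gm12174 (-0.71) and Gm13127 (-0.68), whose levels are uncertain. Npy was at 22 to 25.8 CPM in the old female controls and at 24.2, 24.6 and 34.3 CPM on day 4. In at least 1 of the alternative settings or fits without 1 library, the adjusted p of 16 of these 18 genes was above 0.05, the exceptions being Ctss (at most 0.04) and Ide (at most 0.0299).

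In the comparison with young males, who were 3 to 5 months old, 211 genes differed at an unadjusted p below 0.01 (1.82%), 113 toward a higher (0.973%) and 98 toward a lower value (0.844%) for old males, and 3 at an adjusted p below 0.05 (0.0258%), all lower. Without the correction for GC content 1033 genes differed (8.87%). The library labelled young male day 4 replicate 3 goes against its sex label, and without it 202 genes differed. Without young male control replicate 2 the count was 140, and without young male control replicate 3 it was 338. Ide was 1 of the 3 genes with an adjusted p below 0.05 (-0.87 ± 0.10, adjusted p = 0.000342 by limma). The genes with the largest differences toward a higher change in old males were Lgals3bp, an interferon-induced secreted protein (1.26 ± 0.34), Etnppl, an enzyme of astrocyte lipid metabolism (1.25 ± 0.35), Apod (1.12 ± 0.31), Ndufc2 (0.84 ± 0.18) and the pseudogene Rps26-ps1 (0.82 ± 0.23). Those toward a lower change were, beside Ide, Col6a1, a collagen (-1.11 ± 0.29), Izumo4 (-0.80 ± 0.18), Rgs11, a regulator of G proteins (-0.73 ± 0.24), and Gm20431 (-0.79 ± 0.22), all of whose exon bases overlap another gene. None of these apart from Ide had an adjusted p below 0.05 (adjusted p = 0.302 to 0.533). Without day 4 replicate 3, the change in old males itself was called for Col6a1 (-0.31), Izumo4 (-0.41) and Rgs11 (-0.24), which were not called with all 8 libraries. Lgals3bp was at 15.7, 15.8, 13.9 and 12.6 CPM in the old male controls and at 27.8, 40.2, 42.3 and 26.1 CPM on day 4. In young males it was at 12.4 to 28.9 CPM and 9.92 to 20.6 CPM, so these groups overlapped.

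**Figure D5:**
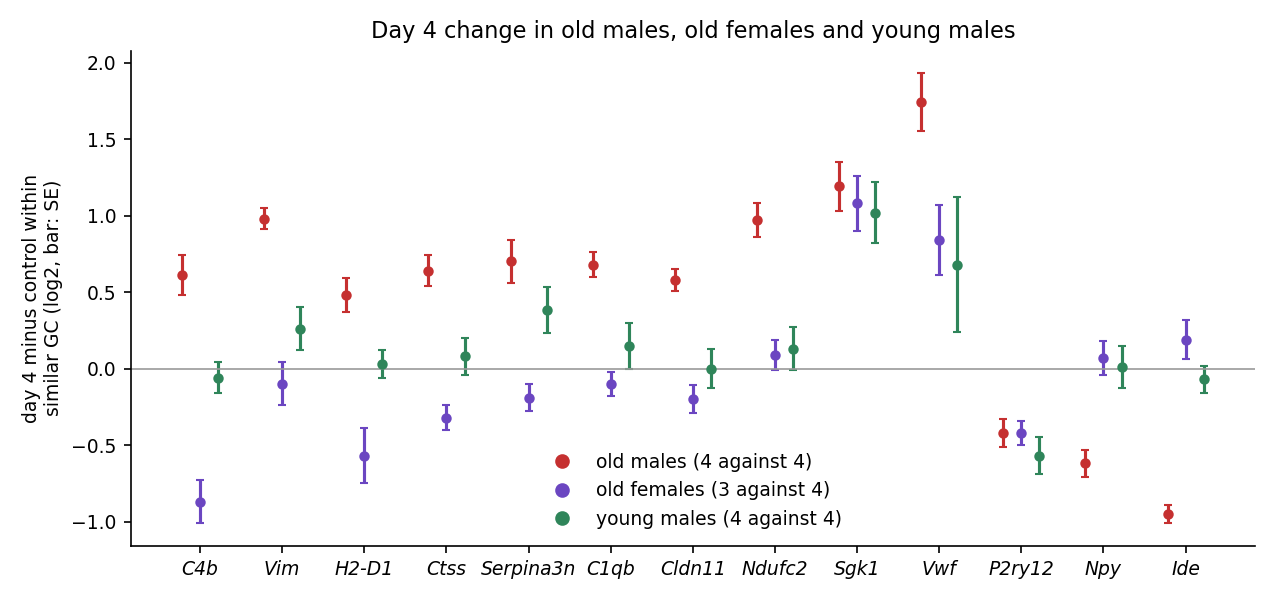
Log2 change on day 4 within similar GC, with SE, of 13 genes in old males (4 control and 4 day 4 libraries), old females (4 and 3) and young males (4 and 4). Vim, C4b, Ctss and H2-D1 were higher in old males (0.98, 0.61, 0.64 and 0.48) and at -0.10, -0.87, -0.32 and -0.57 in old females, and Ide was lower in old males (-0.95), while Sgk1 lay between 1.02 and 1.19 in all 3.

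Old males on day 1 share their controls with those on day 4, so the changes are given side by side without a test of likeness. Within similar GC, 1010 genes were called on day 1 (8.7%). Of the genes above, Sgk1 changed by 1.76 on day 1 and 1.19 on day 4, Plin4 by 3.99 and 2.57, and Vwf by 1.76 and 1.74. Opalin was at -2.39 and -0.78, and P2ry12 at -1.0 and -0.42. C4b was at 0.07 and 0.61, Vim at 0.27 and 0.98, Ide at -0.06 and -0.95, and Ndufc2 at 0.08 and 0.97.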

How the data were processed

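Hippocampal RNA was sequenced from 47 mice on an Ion Torrent library chemistry, and the 8 libraries of old males at control and day 4 were compared. The values deposited by the authors are CPM, read counts per gene scaled to library size, after TMM normalization, made with STAR and Partek on mm10 per the submitters' notes; versions, annotation and the strand of counting are not given in the sources used here. All columns of the table could be assigned to a sample (0 without one). Per library, 80.3% to 84% of values lay within 0.05 of a whole number of reads, too few for a test on counts, so the depth is an estimate.

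Genes with a mean CPM of at least 5 over the 8 libraries were tested on log2(CPM + 1) with limma 3.58.1 (moderated, trend) in R 4.3.3 with the package data.table (1.17.8). Genes passed at a p below 0.01 before adjustment, as the study did, and the Benjamini-Hochberg adjusted p is given beside it. For changes within similar GC, the lowess curve (span 0.3) of each library's deviation from the gene means on exon GC content was subtracted; 32 genes without a GC value were left out. The difference between sexes and ages was an interaction contrast over all libraries of the groups compared. Genes with at least 10% of exon bases shared with another gene are called uncertain. The scripts were tested on simulated data.

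Named genes were the 10 with the largest change in each direction (called in both fits, without overlap, mean of at least 20 CPM), up to 4 per list and direction with the lowest p, and the genes with the largest change among those whose call was lost, turned or gained or whose change differed from old females or young males. The limit of 20 CPM held for these last genes as well, but not for the lists. The members and lists were chosen with earlier results of these data known. Alternatives were other filters, pseudocounts, scalings and GC measures, a replicate block, and each library left out in turn. Some genes that the rule names are not reported here.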

Additional observations from a re-analysis of the deposited data

Results flagged for a closer look

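A library that lay apart from the other 3 of its group by Dixon's criterion was found in 19 of 382 groups of values (4.97%), close to the 1 in 20 groups that chance gives, and 10 of the 19 were the library day 4 replicate 3. In that library Ttr was at 2480 CPM, Clic6 at 35.4, Klf9 at 83.2, Aqp4 at 24.2, Ranbp2 at 20.3, Tm7sf2 at 61.6, Gad1 at 173, Grin2a at 159 and Syn1 at 397 CPM, and its GC slope was 0.45 per 10 percentage points. The other day 4 libraries that lay apart were replicate 2 for H2-K1 (55.6 CPM) and replicate 5 for Irf9 (15 CPM). Among the controls these were replicate 2 for Stat3 (47.5 CPM), replicate 1 for Trem2 (13 CPM), replicate 3 for Ucp2 (7.57 CPM) and Ttr (30.7 CPM), and replicate 4 for Gabra4 (64.3 CPM), Syn2 (616 CPM) and Hsp90aa1 (643 CPM).

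The day 4 change differed between old males and old females at an adjusted p below 0.05 in limma's interaction contrast for 18 of the named genes. The change within similar GC was higher in old males for C4b (by 1.47), Vim (1.07), H2-D1 (1.05), Ctss (0.96), Serpina3n (0.90), Ndufc2 (0.88), C1qb (0.78), Cldn11 (0.78), Cebpd (0.76), Lamb2 (0.61), Sdc4 (0.58), Csf1r (0.51) and Stat3 (0.49). It was lower in old males for Ide (-1.14), Gm8971 (-1.05), Gm12174 (-0.71), Npy (-0.69) and Gm13127 (-0.68). Under the alternatives below the unadjusted p of all 18 stayed below 0.01, but the adjusted p rose above 0.05 in at least 1 alternative for 16 of them, with the highest value between 0.0532 (C4b) and 0.371 (Lamb2). The exceptions were Ctss (at most 0.04) and Ide (at most 0.0299). Between old males and young males the change of Ide differed (-0.87), with an adjusted p of at most 0.139 over the alternatives.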

How the results depend on the processing

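Without the correction for GC content, between 4085 and 4890 genes were called when 1 library was left out, and 1165 to 1790 within similar GC. The slope difference ranged from 0.42 to 0.52. The interaction with old females ranged from 452 to 1136 genes and that with young males from 140 to 338. With a mean of at least 50 CPM, in which fewer genes are tested, the counts were 1691, 579, 260 and 67 for the uncorrected calls, the calls within similar GC and the interactions with old females and young males. With all genes of a mean above 0 in the fit, 5989 were called within similar GC, and the changes of Calb1 (-0.11), Snap25 (-0.06), Chordc1 (-0.22), Rian (-0.06) and Trnp1 (0.04) turned in sign. With the GC content of the longest transcript, that of Erc1 turned (-0.05). With all 12 groups in 1 fit, the interaction with old females was called in 447 genes. Without the GC correction, the interactions were called in 1757 and 1033 genes. The cause of these shifts was not tested.

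Controls and day 4 libraries share the replicate numbers 2 and 3, which do not pair mice by design; the deviations of same-numbered libraries correlated at 0.22 and 0.04 within similar GC. In the fits of old males only these 2 numbers occur in both groups, so with the replicate block the change rests on those libraries alone. With that block, 3867 genes were called without the correction and 1847 within similar GC, and the interactions were called in 283 and 323 genes. At an adjusted p below 0.05, the interaction with old females was called in 9 genes with the replicate block, and in 9 with all 12 groups in 1 fit. Over all alternatives, the change of named genes within similar GC kept direction and side of the threshold in 3228 values, lost its call in 366, gained one in 59 and turned in 6. Depth limits what can be said of genes under the filter, such as the leukocyte markers.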
